A study of Bos taurus with 60 samples.

Results

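The genes described here are 6 enzymes of lipid synthesis, namely ACACA, FASN, SCD, GPAM, LPIN1 and FA2H, which are 6 of the 25223 loci counted. All but FA2H, which hydroxylates fatty acids, act in making fatty acids or in building them into triglycerides. The 6 genes were chosen by name. Each was found in the count tables through the pairs of symbol and locus in the part of the study's supplementary tables held here. That part comes mostly from the tables of D3 vs. D-3 and of D7 vs. D3, ordered by p, and to a small extent from that of D14 vs. D7, so a gene could be found mainly when it ranked high there, and the change of these genes from D-3 to D3 is not independent of how they were found. Each of the 6 loci holds a single ENSEMBL gene.

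Mammary tissue was collected by biopsy from 12 multiparous, pregnant Holstein cows 3 days before dry-off, the day on which milking was stopped (D-3), and 3, 7, 14 and 25 days after it (D3 to D25), which gives 60 samples. During the dry period 6 cows were housed with shade, fans and soakers (cooling, CL) and 6 with shade only (heat stress, HT), so no cow had been treated when its D-3 sample was taken. Biopsies alternated between glands of the udder, visible fat was trimmed, and the cells were not sorted. In unsorted tissue fewer cells of a type and less RNA per cell cannot be told apart.

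Fatty acids are made in the cytosol by repeated addition of malonyl-CoA, and in the ruminant mammary gland the carbon comes mainly from acetate and beta-hydroxybutyrate rather than from glucose. The new chains, together with fatty acids taken up from blood, are joined to glycerol-3-phosphate in successive acylations to give phosphatidate, which is dephosphorylated to diacylglycerol and acylated once more to triglyceride, the main lipid of the milk fat globule. The pathway is highly active in lactating secretory cells, and after milk removal stops the gland involutes and later rebuilds its secretory tissue before calving.

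Total counts lay between 20525083 and 26183990 per sample, and levels are given as counts per 1000000 counts (CPM) after TMM scaling, a method of edgeR that sets a scaling factor for each library. Several samples stood apart. The milk protein genes CSN1S1, CSN2 and LALBA together held between 40.2 and 49.8% of all counts in the D-3 samples of 5 cows (7965, 8564 and 8647 of CL, and 8541 and 8713 of HT), and between 0.190 and 8.03% in those of the other 7. The scaling factors of these 5 D-3 samples were 0.300 to 0.419 against 0.798 to 1.21 in the 55 others, which raises their levels, so CPM without TMM scaling are given beside the D-3 levels. The D14 and D25 samples labelled as cows 8513 and 8660, both HT, resembled the earlier samples of each other more than their own. Over all loci tested the deviations of the D25 sample labelled 8513 from its group mean correlated at 0.55 on average with those of the D-3 to D7 samples of 8660 and at -0.03 with those labelled 8513. The D14 sample of cow 7965 (CL) held 3.36 CPM of the epithelial keratin KRT19 and 5392 CPM of the fibroblast gene DCN, against medians of 581.2 and 951.6 CPM over the 12 D14 samples. The D14 sample of cow 8541 (HT) held 312.8 CPM of the adipocyte gene ADIPOQ against a median of 13.3 CPM.

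At D-3 all 6 genes were high in the 5 cows whose tissue was rich in milk protein counts and low in the other 7, with no overlap between the 2 sets of cows in CPM after TMM scaling. Without TMM scaling the sets still did not overlap for ACACA, SCD, GPAM and FA2H, and they overlapped for FASN and LPIN1. At D3 the sets overlapped for each of the 6. This division was read from the data and is not a group of the study, so the values below are descriptions. The share of all loci that separate the 2 sets of cows in this way was not counted. The lack of overlap is thus not read as a trait of these 6 genes.

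**Figure D1:**
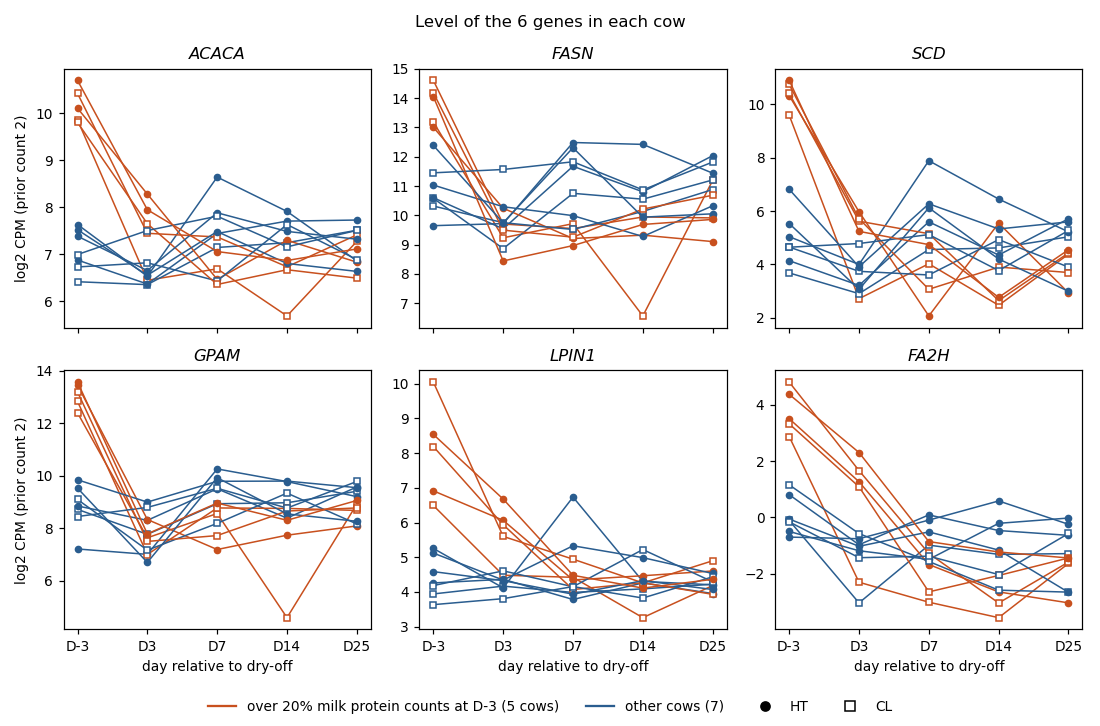
Level of each gene in each of the 12 cows at the 5 time points, as log2 CPM with a prior count of 2. Each line is a cow, filled circles are HT, open squares are CL, and colour separates the 5 cows with over 20% of counts in milk protein genes at D-3 from the other 7. The 5 cows start above all others in every panel, and by D7 they no longer lie above the others in any panel.

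ACACA (ENSBTAG00000017567) encodes acetyl-CoA carboxylase alpha, which makes malonyl-CoA and carries out the committed step of fatty acid synthesis. At D-3 it stood at 896.0 to 1670 CPM in the 5 cows rich in milk protein counts and at 85.2 to 198.5 CPM in the other 7, or at 299.5 to 540.1 against 102.7 to 201.8 CPM without TMM scaling. Over all 12 cows the lowest, median and highest levels were 85.2, 191.1 and 1670 CPM at D-3 and 81.6, 106.6 and 311.1 CPM at D3. The ranges overlapped, since the 7 cows were already near the D3 level at D-3.

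FASN (ENSBTAG00000015980) encodes fatty acid synthase, the multifunctional enzyme that builds palmitate from malonyl-CoA. At D-3 it reached 8206 to 24896 CPM in the 5 cows and 802.0 to 5344 CPM in the other 7, or 2976 to 9765 against 815.6 to 5864 CPM without TMM scaling. At D3 the lowest, median and highest of the 12 levels were 348.3, 838.4 and 3027 CPM. All 5 cows had dropped below the lowest D-3 level of their set, while the highest D3 value, in cow 8686 of CL, lay within the D-3 range of the other 7.

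SCD (ENSBTAG00000047957) encodes stearoyl-CoA desaturase, which places a double bond in stearate and in other saturated fatty acids. Its D-3 level was 770.0 to 1900.0 CPM in the 5 cows and 12.8 to 112.5 CPM in the other 7, or 322.8 to 571.8 against 15.4 to 116.1 CPM without TMM scaling. The D3 levels were 6.50, 15.5 and 62.8 CPM at the lowest, the median and the highest. A further locus described as an acyl-CoA desaturase (ENSBTAG00000045728) followed the same course, from a median of 274.2 CPM at D-3 to 45.1 CPM at D3. In the 60 samples SCD held between 0.191 and 0.523 counts for each count of that locus, with a median of 0.323. The log2 CPM of both correlated at 0.99. Whether the 2 loci are copies of 1 gene was not tested. Only uniquely mapped reads were counted, so reads alike in both would be missing, and the level of SCD alone is uncertain.

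GPAM (ENSBTAG00000011917) encodes the mitochondrial glycerol-3-phosphate acyltransferase that attaches the first fatty acid to glycerol-3-phosphate. It stood at 5384 to 12139 CPM at D-3 in the 5 cows and at 147.8 to 918.6 CPM in the other 7, or at 2257 to 4056 against 150.3 to 948.5 CPM without TMM scaling. The lowest, median and highest levels at D3 were 103.6, 208.1 and 510.1 CPM. The gap between the 2 sets of cows at D-3 thus remained under either scale, and at D3 their ranges overlapped.

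LPIN1 (ENSBTAG00000007689) encodes lipin 1, a phosphatidate phosphatase that yields the diacylglycerol used for triglyceride and also acts on transcription in the nucleus. At D-3 it ranged from 89.97 to 1060 CPM in the 5 cows, the highest value being that of cow 8564 of CL, and from 12.3 to 38.1 CPM in the other 7, or from 37.7 to 415.6 against 14.5 to 38.8 CPM without TMM scaling. At D3 it was 22.3 to 102.3 CPM in the 5 and 13.9 to 24.3 CPM in the 7. In 4 of the 5 cows the D3 level still lay above all of the other 7, at 48.5 CPM or more. By D25 the 12 cows lay between 15.2 and 29.8 CPM, and the SD of log2 CPM over cows was 0.28 at D25 against 2.09 at D-3.

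FA2H (ENSBTAG00000012222) encodes fatty acid 2-hydroxylase, which makes the 2-hydroxy fatty acids found in some sphingolipids and is the member outside the route from acetate to triglyceride. It was the least counted member, with 0 to 276 counts per sample. Only 13 of the 60 samples reached 1 CPM, 8 of them at D-3 and 4 at D3. The filter on low counts asked for 6 such samples, so FA2H passed it only with its D-3 samples, where it was high. The falls of FA2H from D-3 are therefore given as descriptions. Its D-3 level was 7.22 to 27.8 CPM in the 5 cows and 0.532 to 2.15 CPM in the other 7, or 3.03 to 10.9 against 0.541 to 2.58 CPM without TMM scaling. At D3 the 5 cows held 3 to 95 counts and the 7 others 1 to 15, and no sample of the 7 exceeded 0.587 CPM.

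Between D-3 and D3 all 6 genes fell in the fit over all 12 cows, by edgeR's quasi-likelihood F-test at a Benjamini-Hochberg FDR of at most 0.05 over the 14714 loci tested. In the same comparison 9.04% of all loci fell and 15.1% changed in either direction. FA2H was tested only because of its D-3 samples, so its fall here is a description. The log2 fold change of SCD was -4.58 ± 0.73 (SE, n = 12 cows; FDR = 2.31e-05), a level 23.9 times lower. GPAM changed by -4.07 ± 0.54 (FDR = 1.79e-06) and FASN by -2.99 ± 0.52 (FDR = 7.52e-05). These 3 genes lay among the 100 strongest falls of all loci, at ranks 27, 38 and 76. The fall of FA2H was -2.48 ± 0.63 (FDR = 0.00494), that of LPIN1 -2.27 ± 0.49 (FDR = 0.00104) and that of ACACA -1.98 ± 0.37 (FDR = 1.79e-04), at ranks 103, 128 and 159. The change of LPIN1 was -1.40 ± 0.45 (FDR = 0.0385) without cow 8564, the cow with its highest D-3 level, and -1.60 ± 0.45 (FDR = 0.00851) with the cow as a replicate block. Without TMM scaling, where the median log2 fold change of all loci was 0.35 instead of -0.01, the 6 genes had lower levels too, but the change of ACACA was only -0.89 and that of FA2H, -1.41, no longer passed (FDR = 0.0571). The split of all loci called, 887 higher and 1330 lower, turned to 2217 higher and 176 lower under that scaling.

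Taken cow by cow, FA2H was lower at D3 in 12 of 12 cows, SCD and GPAM in 11, ACACA and FASN in 10 and LPIN1 in 8. By comparison, 9.86% of all loci were lower in at least 10 of the 12 cows. The count and the p of FA2H are descriptions, as it passed the filter only with its D-3 samples. The two-sided exact sign-flip test over the 12 within-cow differences of log2 CPM gave an unadjusted p of 4.88e-04 for FA2H, the smallest it can give, and 0.00146 for GPAM. The largest of the 6 was that of LPIN1, at 0.0151 unadjusted. Adjusted over all loci these values were 0.0575 to 0.0881, and no locus of the 14714 passed in that test, in which 4756 had an unadjusted p under 0.05 and the lowest possible p limits the adjusted one.

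No call remained without the 5 cows rich in milk protein counts. In a fit chosen after seeing the data that left them out, 0 of the 6 genes passed edgeR's test for D3 vs. D-3, as did 0.0% of all loci, of which 762 had an unadjusted p under 0.05. The same 7 cows fitted with a replicate block for the cow gave 0 loci as well, and 1337 below that p. All 6 changes stayed negative in the 7 cows. SCD changed by -1.49 ± 0.53 (FDR = 0.854) and GPAM by -0.94 ± 0.37 (FDR = 0.871). FA2H was lower in 7 of the 7 and changed by -1.51 ± 0.53 (FDR = 0.839), and LPIN1, higher in 4 of the 7 cows, changed by -0.27 ± 0.34 (FDR = 0.968). In the 5 cows each gene was lower at D3 in 5 of 5, with median differences from -2.01 log2 CPM for LPIN1 to -5.70 for GPAM. These cows were picked by a D-3 measure with which the 6 genes were high, so their fall from D-3, and the smaller one of the other 7, follow in part from the choice and are given as descriptions. The share of milk protein counts at D-3 thus moved with these calls, and its part in the result was not tested.

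**Figure D2:**
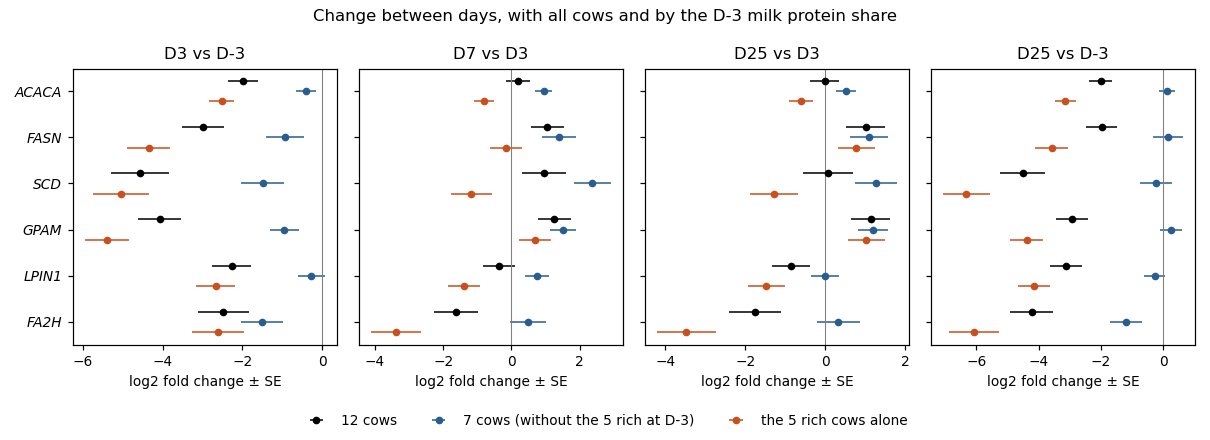
Log2 fold change with its SE for each gene in 4 comparisons of days, from the fit of all 12 cows, of the 7 cows without the 5 rich in milk protein counts at D-3, and of those 5 alone. For D3 vs. D-3 and D25 vs. D-3 the 5 cows alone lie farthest from 0, and the 7 others lie near 0 for D25 vs. D-3, from -1.19 for FA2H to 0.25 for GPAM.

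From D3 to D7 none of the 6 genes passed edgeR's test, against 2.92% of all loci. Among the 6, GPAM and FASN had an unadjusted p under 0.05 and a positive change, of 1.26 ± 0.48 (FDR = 0.144) and 1.06 ± 0.49 (FDR = 0.257), and FA2H a negative one of -1.62 ± 0.64 (FDR = 0.163). In a fit of only the 24 samples of both days, in which 407 of all loci passed, GPAM did so, with 1.25 ± 0.32 (FDR = 0.0350). Its level was higher at D7 in 11 of 12 cows, from a median of 208.1 to one of 492.8 CPM (exact sign-flip p = 0.00439 unadjusted, 0.0928 adjusted over all loci). Leaving out cows 8513 and 8660 together took the change of FASN to 0.43, that of GPAM to 0.83 and that of SCD from 0.96 to 0.02. In the 7 cows poor in milk protein counts at D-3 the 6 fitted changes were positive, at 2.37 ± 0.55 for SCD (FDR = 0.126), 1.52 ± 0.37 for GPAM (FDR = 0.148) and 0.95 ± 0.25 for ACACA (FDR = 0.163), and none passed, nor did any of all loci (0.0%), of which 1442 had an unadjusted p under 0.05. LPIN1 was lower in 4 of these 7 cows, with a median difference of -0.18 log2 CPM, and its positive fit went with cow 8513, in which it rose by 2.62.

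The direction from D3 to D7 differed between the 2 sets of cows for 3 genes in particular. SCD was higher at D7 in 6 of the 7 cows poor in milk protein counts at D-3, with a median difference of 2.36 log2 CPM, and lower in 4 of the 5 rich ones, with a median of -0.50. ACACA was higher in 6 of the 7 and lower in 4 of the 5. FA2H was higher in 5 of the 7 and lower in 5 of the 5, with medians of 0.51 and -2.94. These counts were not tested, as the sets were drawn from the data. The milk protein share itself moved the same way, from a median of 0.203% at D3 to 1.96% at D7 in the 7 cows and from 5.58 to 0.0710% in the 5, and its part in these changes was not tested.

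The highest D7 levels belonged to cow 8513 of HT for 5 of the 6 genes. That sample held 5727 CPM of FASN, 236.2 of SCD, 1224 of GPAM, 106.5 of LPIN1 and 400.0 of ACACA, and 14.5% of its counts came from the 3 milk protein genes, the highest share at D7. For FA2H the highest D7 level, 0.979 CPM, was that of cow 8668 of HT, with a milk protein share of 3.92%.

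Between D7 and D14 none of the 6 genes passed, nor did any of all loci (0.0%), by edgeR with trended dispersions or by DESeq2. In that edgeR fit 257 loci had an unadjusted p under 0.05. The estimates of the 6 were negative, from -0.13 ± 0.66 for FA2H to -0.91 ± 0.63 for SCD, which was lower at D14 in 8 of 12 cows. With tagwise dispersions edgeR called 10 loci, none of them among the 6. From D14 to D25 the 6 genes did not pass either, against 0.0612% of all loci. The D14 levels were lowest in cow 7965 of CL for all 6, the sample poor in KRT19, with 94.9 CPM of FASN, 24.03 of GPAM and 0 counts of FA2H in a library of 22784804 counts. At D25 the 12 cows lay closer together than at D-3 for each of the 6. The SD of log2 CPM was 0.39 for ACACA at D25 against 1.65 at D-3, and 0.58 for GPAM against 2.31.

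D25 was set against D3 to see how far levels had moved since early involution. In edgeR's fit none of the 6 genes passed, against 6.02% of all loci. The change was positive for GPAM, at 1.13 ± 0.48 (FDR = 0.151), and FASN, at 1.004 ± 0.49 (FDR = 0.214), near 0 for ACACA and SCD, at -0.02 ± 0.36 and 0.06 ± 0.63, and negative for LPIN1, at -0.85 ± 0.48 (FDR = 0.285), and FA2H, at -1.75 ± 0.65 (FDR = 0.0910). DESeq2 called FA2H (adjusted p = 0.0441) among 1291 of all loci, although FA2H was lower in only 6 of 12 cows. Within cows the rise of GPAM did pass over all loci. It was higher at D25 in 11 of 12 cows, at 271.8, 507.4 and 878.9 CPM for the lowest, the median and the highest, against 103.6, 208.1 and 510.1 CPM at D3 (exact sign-flip p = 9.77e-04, 0.0273 adjusted over all loci, of which 1725 passed). With the D25 labels of cows 8513 and 8660 exchanged the adjusted p was 0.0268, and without both cows it was 0.0674, with GPAM higher in 9 of 10 cows and 0 of all loci passing (4138 with an unadjusted p under 0.05). In edgeR's fit with the cow as a replicate block GPAM did not pass either (FDR = 0.121). FASN was also higher in 11 of 12 cows, with medians of 1765 and 838.4 CPM, and its adjusted p was 0.0622.

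Markers of other cell types moved over the same days. From D-3 to D3 the basal and myoepithelial genes KRT5 (1.01 ± 0.31, FDR = 0.0190) and ACTA2 (0.81 ± 0.27, FDR = 0.0351) rose, the third of that list, MYLK, did not pass (0.42 ± 0.16), the skeletal muscle gene MYH2 rose by 2.95 (SE 0.81) and the endothelial gene KDR fell by 0.95 (SE 0.22). From D3 to D25, when 6.02% of all loci changed, 3 of the 3 paired basal and myoepithelial genes fell. KRT5 did so in 12 of 12 cows (-1.30 ± 0.31, FDR = 0.00643). KRT19 (-1.24 ± 0.34, FDR = 0.0192) and MYH2 (-4.96 ± 0.89, FDR = 4.37e-04) fell too. The adipocyte gene ADIPOQ was lower at D3 than at D-3 in 11 of 12 cows (-0.84 ± 0.45) and higher at D25 than at D3 in 11 of 12 (1.08 ± 0.45), and passed in neither. Of the adipocyte list 1 of 8 genes could be paired, of the leukocyte list 0 of 7, and the part of these cells in the changes of the 6 genes was not tested.

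GPAM and LPIN1 act at successive stages of triglyceride synthesis, but their courses after dry-off separated. The scaling factor cancels in the ratio of 2 genes within a sample, apart from the prior count. The 15 ratios among the 6 genes were therefore tested for D3 vs. D-3 and for D25 vs. D3 with the exact sign-flip test. This step was chosen after the courses of the genes were seen, and p was adjusted over these 30 ratios alone. Ratios of other genes were not tested, so no share over other pairs can be set beside them. Both comparisons use the D3 samples, so a fall up to D3 and a rise after it are in part linked. The p of the ratios thus describe courses already seen. From D-3 to D3 GPAM fell relative to LPIN1 in 10 of 12 cows, by 1.79 ± 1.69 on the log2 scale (mean ± SD; adjusted p = 0.0160). The median differences of log2 CPM were -5.70 for GPAM and -2.01 for LPIN1 in the 5 cows rich in milk protein counts at D-3. In the other 7 they were -0.85 and 0.10. From D3 to D25 GPAM rose relative to LPIN1 in 12 of 12 cows, by 1.77 ± 0.98 (adjusted p = 0.00732). It did so in 10 of 10 cows without cows 8513 and 8660 (adjusted p = 0.0117) and in 12 of 12 with their labels exchanged. The median log2 ratio of GPAM to LPIN1 was 4.87 at D-3, 2.72 at D3, 4.30 at D7 and 4.79 at D25.

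FASN and ACACA, which act one after the other, separated in the same way. FASN fell relative to ACACA from D-3 to D3 in 11 of 12 cows (the log2 ratio of ACACA to FASN rose by 1.04 ± 1.13, adjusted p = 0.0220) and rose relative to it from D3 to D25 in 11 of 12 (the ratio of ACACA to FASN changed by -0.91 ± 0.87, adjusted p = 0.0160). From D3 to D25 FASN also rose relative to LPIN1, by 1.56 ± 1.34, and to FA2H, by 2.01 ± 1.74, in 10 of 12 cows each (adjusted p = 0.0110 for both). The ratio of FASN to GPAM changed by -0.21 ± 0.83 and that of LPIN1 to FA2H by 0.45 ± 1.53 over the same days, neither of which passed (adjusted p = 0.431 and 0.374). Of the 30 ratios of log2 CPM the passing ones thus set GPAM and FASN on one side and LPIN1, FA2H and ACACA on the other for D25 vs. D3, with SCD also higher relative to FA2H (1.26 ± 0.92, adjusted p = 0.00732) and ACACA relative to LPIN1 (0.65 ± 0.66, adjusted p = 0.0171).

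**Figure D3:**
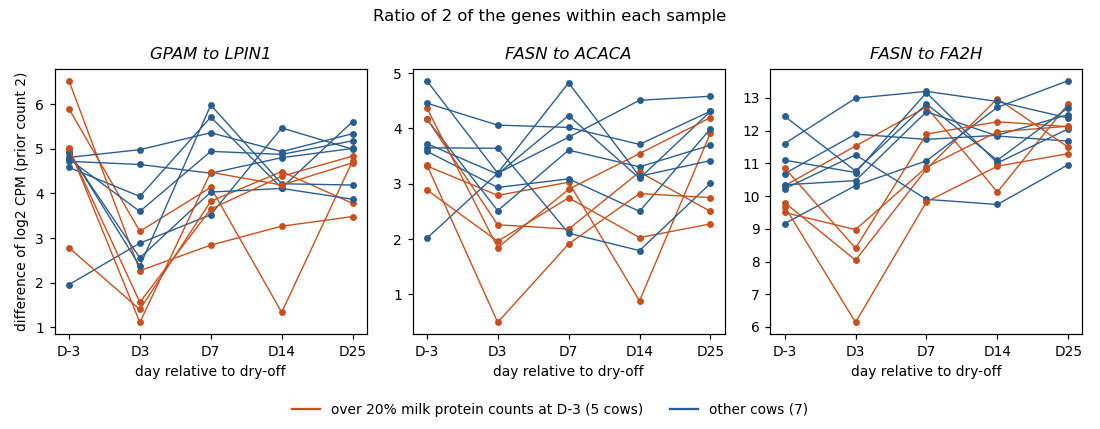
Within-sample ratios of 3 pairs of the genes at the 5 time points, as differences of log2 CPM with a prior count of 2. Each line is a cow, coloured by whether its D-3 sample held over 20% of counts in milk protein genes. In the first panel the ratio of GPAM to LPIN1 is higher at D25 than at D3 in 12 of 12 cows.

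Samples with a like share of milk protein counts were also set side by side across days. The D3 samples of 4 cows (8541, 8564, 8647 and 8713) had a share of 3.66 to 7.45%, and 6 samples of other days one of 3.37 to 14.5%. This second set held the D7 samples of cows 8513 and 8660 and the D-3, D7, D14 and D25 samples of cow 8668. GPAM stood at 127.7 to 322.0 CPM in the first and at 746.6 to 1224 CPM in the second, without overlap. FASN was at 348.3 to 1211 against 621.0 to 5727 CPM. LPIN1 and FA2H leaned the other way, with medians of 64.0 against 33.2 CPM and of 2.70 against 0.745 CPM, as did ACACA with 223.9 against 179.1 CPM. SCD had medians of 50.8 and 73.3 CPM. The samples were picked by their share after the data were seen and come from few cows, so no test was made. The share of all loci without overlap between these samples was not counted, so that of GPAM is a description. The 4 D3 samples are all from cows rich in milk protein counts at D-3 and the 6 others all from cows that were not, so day and set of cows cannot be told apart.

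**Figure D4:**
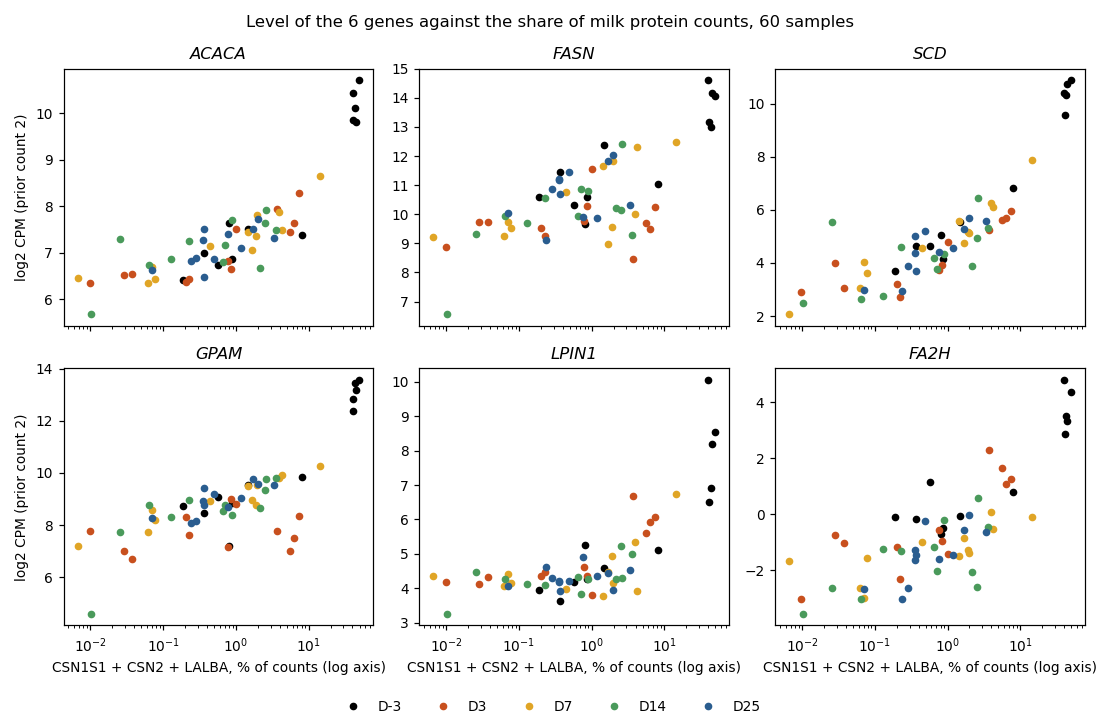
Level of each gene (log2 CPM, prior count 2) against the share of counts held by CSN1S1, CSN2 and LALBA (percent, log axis) in the 60 samples, coloured by day. The 5 D-3 samples above 40% stand apart along the share, the measure by which they were picked. In level 1 of them, that of cow 7965, lies below some samples of other days for LPIN1. It held 89.97 CPM against 106.5 CPM in the D7 sample of cow 8513. Between 3 and 15% the D3 samples lie below the others in the panel of GPAM, in few samples that were picked after the data were seen.

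Compared with D-3, all 6 genes were still lower at D25 in the fit of 12 cows, where 9.16% of all loci were lower and 13.1% changed. The changes were largest for SCD, at -4.52 ± 0.73 (FDR = 2.23e-05), and FA2H, at -4.23 ± 0.69 (FDR = 2.69e-05). That of FA2H is again a description, since only its D-3 samples brought it through the filter. LPIN1 was at -3.12 ± 0.51 (-2.16 ± 0.47 with the cow as a replicate block), GPAM at -2.94 ± 0.51, ACACA at -2.003 ± 0.37 and FASN at -1.98 ± 0.50, with FDR from 2.71e-05 to 0.00567. The exact sign-flip test gave adjusted p of 0.119 to 0.200 for the 6 over all loci, of which none passed and 4164 had an unadjusted p under 0.05. Without the 5 cows rich in milk protein counts 0 of the 6 passed, as did 0.0% of all loci (388 with an unadjusted p under 0.05, and 743 with the cow as a replicate block), and the change was positive for ACACA, FASN and GPAM, at 0.12 ± 0.25, 0.16 ± 0.48 and 0.25 ± 0.36. In those 7 cows FASN was higher at D25 than at D-3 in 5 and GPAM in 4. Without TMM scaling the change of FASN was -0.75 ± 0.43 (FDR = 0.123).

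The comparison of HT with CL asked whether heat stress during the dry period altered these levels. At none of the 5 time points did any of the 6 genes pass edgeR's test in the 12 samples of that day, nor did any of all loci (0.0% at each day). The numbers with an unadjusted p under 0.05 were 298 of 14714 before dry-off (D-3), then 97 (D3), 672 (D7), 247 (D14) and 333 (D25). DESeq2 called 3 loci at D7 and 1 at D25, and edgeR with tagwise dispersions 1 at D-3, 5 at D7 and 1 at D25, none of them among the 6. At D3 the changes lay between -0.30 ± 0.44 for FASN and 0.53 ± 0.93 for FA2H, and at D25 between -0.25 ± 0.45 for FASN and 0.56 ± 0.65 for FA2H.

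At D7 the estimates of all 6 were positive, from 0.60 ± 0.34 for ACACA to 1.84 ± 0.69 for SCD (FDR = 0.959 for each). The 6 levels correlated over the 60 samples (r from 0.53 to 0.95), so a shared sign is not 6 separate results. A change of at least 0.5 toward HT was seen in 5.36% of all loci. SCD ranged from 4.13 over a median of 58.9 to 236.2 CPM in HT and from 8.33 over 19.9 to 35.5 CPM in CL, so the lowest value of the day belonged to HT and the groups overlapped. The two-sided exact permutation test gave p = 0.193 for SCD, which had p = 0.0196 in edgeR. For FA2H the levels were 0.229, 0.541 and 0.979 CPM in HT and 0.0394, 0.277 and 0.421 CPM in CL, and its change was 1.24 ± 0.53 (exact permutation p = 0.0455, 0.964 adjusted over all loci). Without cow 8513 the estimate of SCD was 1.06 ± 0.58 and that of LPIN1 went from 0.87 to 0.16. Without cows 8513 and 8660 that of FASN was -0.03 at D7. The milk protein share was also higher in HT at D7, with medians of 2.80 and 0.259%, and its part in these differences was not tested.

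At D14 the estimates of all 6 were positive as well, the smallest being 0.16 ± 0.28 for LPIN1. FA2H showed the largest, 2.198 ± 0.73 (FDR = 0.998). Its lowest, median and highest levels were 0.0751, 0.501 and 1.41 CPM in HT and 0, 0.119 and 0.318 CPM in CL (exact permutation p = 0.0195, 0.9998 adjusted over all loci), so the groups overlapped. FASN, at 0.61 ± 0.66, turned to -0.21 ± 0.61 without cows 8513 and 8660. SCD was at 1.21 ± 0.57 (exact permutation p = 0.141). Leaving out cows 7965 and 8541, whose D14 samples stood apart, gave 2.19 ± 0.58 for FA2H and 0.94 ± 0.60 for SCD. As the cows 8513 and 8660 are both HT, an exchange of their samples does not alter this comparison. The FA2H counts of a sample at D14 ran from 0 to 34, and differences of this size rest on few reads.

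The interaction of treatment with time was tested over all 60 samples and called 0 of the 6 genes and 0.0% of all loci, with 85 loci at an unadjusted p under 0.05 and p from 0.233 for LPIN1 to 0.943 for GPAM. For the change from D-3 to D3 alone the interaction called 0 loci as well, with 136 at an unadjusted p under 0.05, and was largest for LPIN1, at 1.69 ± 0.94 (FDR = 0.9997).

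**Figure D5:**
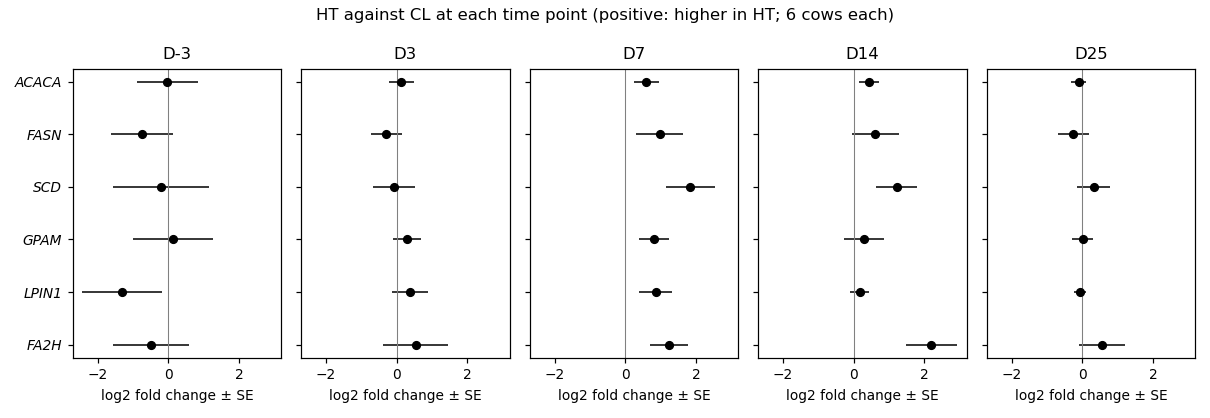
Log2 fold change of HT against CL with its SE for each gene at each time point, from edgeR's fit of the 6 HT and 6 CL samples of that day. Positive values are higher in HT. All 6 points lie above 0 at D7 and at D14, none passed the test, and at D-3, before the treatments, the SE reach 1.36.

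Other genes of the pathway were read from lists chosen with earlier results of these data known, and only genes that the held tables pair with a locus could be used. As those tables rank loci by p, the counts for D3 vs. D-3 partly follow from how the genes were found. Of 23 genes of fatty acid synthesis 9 could be paired. The median log2 fold change of the 9 from D-3 to D3 was -1.98 against -0.01 over all loci. Of the 9, 7 fell and 0 rose, beside 9.04% of all loci that fell. Besides the members these were FADS1, the delta-5 desaturase (-3.03 ± 0.50), and the elongation enzymes HSD17B12 (-0.74 ± 0.19) and TECR (-0.62 ± 0.16), while SCD5 (-0.54 ± 0.20, FDR = 0.0556) and OXSM, the mitochondrial ketoacyl synthase (0.18 ± 0.16, FDR = 0.481), did not pass. SCD5, a second stearoyl-CoA desaturase gene, was the only one of the 9 to pass for D7 vs. D3, beside 2.92% of all loci. It rose by 0.81 ± 0.20 (FDR = 0.0168) and was higher in 10 of 12 cows.

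Of 20 genes of triglyceride synthesis 7 could be paired, with a median of -1.13 from D-3 to D3. Of these 7 genes 5 fell, beside 9.04% of all loci, and how they were paired limits this count too. GPAT4, the acyltransferase of the endoplasmic reticulum that carries out the same step as GPAM, fell by 2.11 on the log2 scale (SE 0.34, FDR = 2.31e-05), from 416.1 to 96.1 CPM on average. AGPAT1, which adds the second fatty acid, fell by 1.13 (SE 0.25, FDR = 0.00110), and GPD1L by 0.55 (SE 0.18, FDR = 0.0297). LPIN2, the paralog of LPIN1, had a change of 0.31 ± 0.12 (FDR = 0.0775), and LCLAT1 one of -0.02 ± 0.08. GPAT4 and AGPAT1 showed no rise after D3 of the kind seen for GPAM, at -0.17 ± 0.32 and 0.00 ± 0.24 for D25 vs. D3, neither of which passed, but the difference from GPAM was not tested.

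Among genes that supply the pathway some fell as well at D3, beside 9.04% of all loci. Of 5 paired genes of acetyl-CoA and NADPH supply 4 fell, led by ACSS2, which activates acetate in the cytosol (-2.92 ± 0.47), and IDH1, a source of NADPH (-1.10 ± 0.24). Of 7 genes of fatty acid uptake and activation 5 fell and 1 rose. The largest falls were those of FABP3, a fatty acid binding protein (-5.33 ± 0.93), and LPL, the lipase that frees fatty acids from blood lipoproteins (-4.92 ± 0.67), and the rise was that of ACSL5, an acyl-CoA synthetase (0.65 ± 0.16). Of 7 regulators of lipogenesis 6 fell, with INSIG1, which retains SREBP in the endoplasmic reticulum, at -2.72 ± 0.51 and the coactivator PPARGC1A at -2.28 ± 0.57. In the 7 cows poor in milk protein counts no locus passed, so none of these falls did.

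The genes with a symbol whose log2 CPM over the 60 samples was most like that of a member were found by Pearson's r, a description in which the 5 D-3 samples weigh heavily and each cow enters 5 times. For SCD and ACACA the closest was ACSS2, at 0.97 and 0.96, and GCAT was among the 3 closest of both, at 0.95. REEP6 was among the 3 closest to FASN (0.92) and to GPAM (0.91), for which ACSS2 came next (0.90). The closest to FASN was RASSF4 (0.93), to LPIN1 HPSE (0.92) and to FA2H FAM134B (0.90), followed by SPTLC3 (0.87), a subunit of the enzyme that starts sphingolipid synthesis. Among the 6 genes r ranged from 0.53 between FASN and LPIN1 to 0.95 between ACACA and SCD.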

How the data were processed

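Reads were trimmed (Trim Galore), mapped (Tophat) and assembled into merged loci guided by ENSEMBL (Cufflinks) by the authors, who deposited whole-number counts of uniquely mapped reads per locus from htseq-count, without normalization. The library kit is not directional and the strand setting of the counting is not given in the sources used here, so antisense reads cannot be told apart. The genome build is named as UMD3.1 in the submitters' processing notes and as bosTau7 in the methods, and no coordinates are printed.

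The members and gene lists were chosen with earlier results of these data known. Named genes were the 6 members, the acyl-CoA desaturase locus, the lists of fatty acid and triglyceride synthesis, the 2 largest rises and falls of each other list in the first pair of day comparisons, markers, and the 3 genes most like each member. Symbols came from 3033 pairs of symbol and locus.

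A locus was tested if 6 or more of the 60 samples reached 1 CPM (14714 of 25223), with edgeR 4.0.16 under R 4.3.3, using TMM factors and the quasi-likelihood F-test with trended dispersions. Time was tested in all 60 samples with a mean for each day, HT vs. CL in the 12 samples of a day. The SE is the log2 fold change over the root of F. Exact two-sided tests used log2 CPM (prior count 2), with 4096 sign changes or 924 splits, and were adjusted over all loci by Benjamini-Hochberg in place of the planned adjustment over the members alone. The ratio tests, the within-cow tests without cows 8513 and 8660, and the fits without or with only the 5 cows rich in milk protein counts were added after the data were seen. Other tools were DESeq2 1.42.0, scipy 1.17.1, pandas 2.3.3 and numpy 2.4.6 under Python 3.11.15, and matplotlib 3.10.9. The scripts were tested on simulated data. Samples of a day pair by cow, as the labels give the animal. Deviations from group means correlated at 0.29 on average within a cow and at -0.06 between cows of a treatment. One gene of the lists is not reported here.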

Additional observations from a re-analysis of the deposited data

Results flagged for a closer look

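In the 60 sets of 6 samples (6 genes, 5 days, 2 treatments), 3 values lay apart from the other 5 by the Dixon criterion, which chance exceeds in about 1 of 20 sets. FASN at D14 in CL had its lowest value in cow 7965, at 94.9 CPM, and GPAM at D14 in CL had its lowest in the same sample, at 24.03 CPM. This is the sample with 3.36 CPM of KRT19 and 5392 CPM of DCN. FASN at D3 in CL had its highest value in cow 8686, at 3027 CPM, in a sample whose milk protein share of 1.01% was the highest among the cows that were poor in milk protein counts at D-3. No gene moved one way in all HT cows and the opposite way in all CL cows between any 2 days compared.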

How the results depend on the processing

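FA2H entered the tests only through its D-3 samples. Counts of members called are out of 6 and include FA2H. For D3 vs. D-3 and D25 vs. D-3 they were 6 in the fit as reported, 5 or 6 under the alternatives fixed at the start, and 6 with each cow left out in turn. They were 0 and 0 without the 5 cows rich in milk protein counts at D-3, and 0 and 0 with these left out and the cow as replicate block. In those fits the D25 vs. D-3 change became positive for ACACA (0.12, and 0.15 with the block), FASN (0.16 and 0.15) and GPAM (0.25 and 0.20). For D7 vs. D3, where 0 were called, only the 24 samples of the 2 days gave 1 and the 5 rich cows alone 1. Of the 14714 loci tested these fits called 407 and 1589. For D25 vs. D3, with 0 called, the 24 samples gave 1, DESeq2 1 and the 5 cows alone 2. Of all loci these fits called 843, 1291 and 2037. With the cow as replicate block the 12 cows gave 6, 0, 0, 0, 0 and 6 members for the 6 comparisons of days, as in the fit without it, and no interaction. For HT vs. CL every fit run gave 0, and for D7 the change of FASN turned to -0.03 without cows 8513 and 8660. FA2H could not be tested with a minimum of 5 CPM.

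Over all loci, the replicate block raised the calls from 430 to 881 for D7 vs. D3, from 886 to 1767 for D25 vs. D3 and from 1930 to 3003 for D25 vs. D-3. The 24 samples alone lowered them from 2217 to 845 for D3 vs. D-3 and from 1930 to 945 for D25 vs. D-3. Library size only gave 36, 174 and 6037 for D7 vs. D3, D25 vs. D3 and D25 vs. D-3, tagwise dispersions 648 and DESeq2 716 for D7 vs. D3. Tagwise dispersions also gave 10 for D14 vs. D7 and 1, 5 and 1 for HT vs. CL at D-3, D7 and D25, where the reported fit gave 0. Leaving out cow 8541, 8564, 8647 or 8713, each rich in milk protein counts at D-3, gave 1388, 1254, 1258 and 1230 for D3 vs. D-3. In that order the same 4 gave 126, 49, 127 and 137 for D7 vs. D3, and 870, 1111, 874 and 1055 for D25 vs. D-3, and 8564, 8647 and 8713 gave 411, 390 and 519 for D25 vs. D3. Of the other cows, 8060, 8314 and 8660 left out gave 286, 284 and 247 for D7 vs. D3. The causes were not tested. FA2H, with 0 to 34 counts per sample at D14, is limited by depth.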

Other observations

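Genes that use fatty acids were read from the same kind of lists. Of 16 genes of fatty acid oxidation 4 could be paired. CPT1A, the carnitine palmitoyltransferase that lets long chains into mitochondria, rose from D-3 to D3 by 0.93 ± 0.25 (log2, SE; edgeR FDR = 0.00841) in 10 of 12 cows, ECHS1 fell by 0.57 (SE 0.13, FDR = 0.00165), and ACADS fell by 0.43 (SE 0.15, FDR = 0.0425). None of the 4 passed for D7 vs. D3, beside 2.92% of all loci. Of 3 lipolysis genes G0S2, an inhibitor of adipose triglyceride lipase, fell by 2.69 at D3 (SE 0.45, FDR = 4.12e-05). PNPLA2, that lipase, fell from D3 to D25 in 10 of 12 cows, with a change of -0.76 ± 0.21 (FDR = 0.0206), and MGLL, which cleaves monoacylglycerol, in 11 of 12, with one of -1.43 ± 0.39 (FDR = 0.0164). Of 13 paired genes of cholesterol synthesis 12 fell from D-3 to D3, with a median of -1.20, beside 9.04% of all loci that fell and a median of -0.01 over all loci. Without the 5 cows rich in milk protein counts at D-3 no locus passed for D3 vs. D-3. How the genes were paired limits these counts in the way given above for the other lists.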
